A study of Mus musculus with 4 samples.

Results

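Melanotrophs are the endocrine cells of the pituitary's intermediate lobe, and the 1125 cells described here are those found in the wild-type libraries of a study of mice that overexpress p25, an activator of the kinase Cdk5. A cell was counted as a melanotroph when it held at least 1 unique molecular identifier (UMI, a counted RNA molecule) of Pcsk2 and at least 1 of Pax7, Oacyl, Megf11 or Esm1, when Pomc made up at least 5% of its UMIs, and when Gh and Prl were each under 10%. Cells had first to show at least 500 detected genes and at most 20% mitochondrial UMIs. Of 14506 wild-type cells that passed these first filters, 543 at 14 weeks and 582 at 40 weeks met the rule. All 4 libraries held 29899 kept cells, and 1503 and 4101 cells of the p25OE libraries at 14 and 40 weeks met the same conditions but are not described as members. The members were thus selected on measured values of Pomc, Pcsk2, the second markers, Gh and Prl, so those values are given only as a description.

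The study made 1 droplet-based single-cell RNA library from each of 4 groups, p25OE and WT littermates at 14 and at 40 weeks of age, on the strain given as C57BL/6- B6;CBA-BiTg mice. Whole pituitaries were dissociated with papain, red blood cells were lysed, and the labels mention 2 separate 10x runs without saying which library belonged to which. The lobes were not separated, and the number of animals behind a library, their sex and the hour of collection are not given in the sources used here. With 1 library per group there is no test between groups: age, animal, run and library cannot be told apart, and all intervals below are 95% intervals that cover counting error only. The WT libraries held 8911 barcodes at 14 weeks and 12054 at 40 weeks, and 95242353 and 53714895 UMIs. The 2 sets of barcodes had 2 sequences in common, the 2 libraries at 14 weeks 32 and the 2 libraries at 40 weeks 135, and no barcode of a melanotroph occurred among melanotrophs of another library.

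Melanotrophs make the same precursor as the corticotrophs of the anterior lobe, pro-opiomelanocortin (Pomc), but cut it differently. Corticotrophs release adrenocorticotropin through the convertase encoded by Pcsk1, whereas melanotrophs add the convertase of Pcsk2 and so release alpha-melanocyte-stimulating hormone and beta-endorphin. Pax7 is the factor that sets the melanotroph fate in the mouse, and dopamine and GABA reaching the lobe through nerve fibres from the brain hold secretion down.

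Melanotrophs made up 8.25% of the kept cells at 14 weeks (exact binomial interval 7.60 to 8.94%) and 7.34% at 40 weeks (6.78 to 7.94%). They held 11.6% and 8.55% of the kept UMIs. At 14 weeks 1157 cells held Pcsk2, 668 of them a second marker, 597 of those enough Pomc, and the limits on Gh and Prl removed 54. At 40 weeks the same steps gave 3003, 1219 and 666 cells, and the limits on Gh and Prl removed 84. The step on Pomc thus took out 71 cells at 14 weeks and 553 at 40 weeks. Few cells sat near the Pomc threshold: 3 and 10 members had 5 to 6% Pomc, while 8 and 22 cells that met the other conditions had 4 to 5%.

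The median melanotroph gave 17154 UMIs and 4333 genes at 14 weeks and 7122.5 UMIs and 2176 genes at 40 weeks. Pomc took a median 21.6% of a melanotroph's UMIs at 14 weeks, from 5.48 to 47.9%, and 23.8% at 40 weeks, from 5.00 to 62.3%. Thus Pomc took a similar share of the counted UMIs in both libraries, with any free RNA included, while the younger cells were read more deeply. Mitochondrial transcripts took 5.59% and 4.14%. Gh, the growth hormone gene that melanotrophs are not known to transcribe, took a median 0.17% at 14 weeks and 2.48% at 40 weeks, with Prl at 0.38% and 2.57%.

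**Figure D1:**
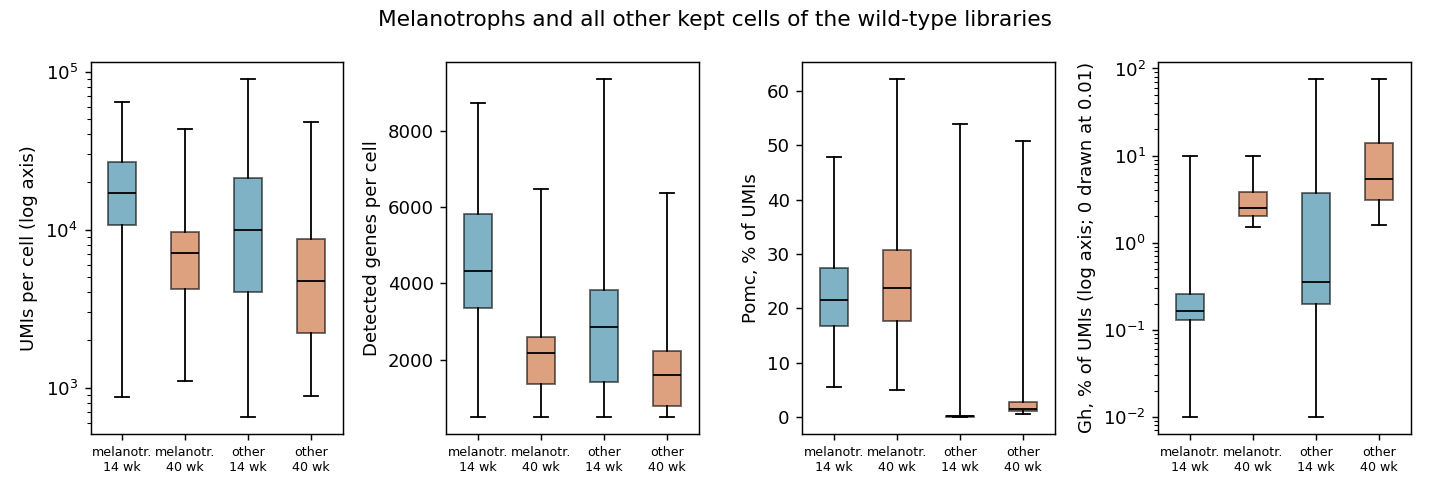
UMIs per cell, detected genes per cell, and the share of UMIs that were Pomc or Gh in wild-type melanotrophs and all other kept cells of the 14-week and 40-week libraries. Boxes span the quartiles, the line is the median and whiskers reach the lowest and highest cell; melanotrophs of both libraries sit near 20% Pomc, while their median Gh share is 0.17% at 14 weeks and 2.48% at 40 weeks.

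Pomc stood at 210411 CPM (counts per 1000000 summed UMIs of the melanotrophs) at 14 weeks and 234056 at 40 weeks. Pcsk2 stood at 1902 and 1733 CPM. Among the second markers Oacyl, which encodes an acyltransferase-like membrane protein, was the most abundant at 948 and 590 CPM, and it was found in 525 of 543 and 507 of 582 melanotrophs. Esm1, a secreted proteoglycan, stood at 403 and 364 CPM and occurred in 498 and 470 cells. Pax7 stood at 166 and 96.4 CPM, in 446 and 254 cells, and Megf11, a membrane protein with EGF-like repeats, at 135 and 95.7 CPM, in 379 and 238 cells. All 4 second markers were present together in 326 melanotrophs at 14 weeks and in 126 at 40 weeks, whereas 31 and 110 cells held only 1 of them.

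Detection of the markers moved with depth within each library. In the 146 shallowest of the 40-week melanotrophs, cells with a median of 2693.5 UMIs, none held all 4 second markers, Pomc was at a median 28.1% and Gh at 5.14%. In the 146 deepest 49.3% held all 4 and Gh was at 1.996%. At 14 weeks the share with all 4 went from 22.8% in the 136 shallowest to 85.3% in the 136 deepest, with Gh at 0.301% and 0.137%. Barcodes under 500 genes, which are taken here as a sample of free RNA, had Gh at 13.1% of UMIs at 14 weeks and 10.6% at 40 weeks. If all Gh in melanotrophs were free RNA, free RNA would make up 4.19% of their UMIs at 14 weeks and 24.9% at 40 weeks. The same barcodes had Pomc at 2.58% at 14 weeks and 4.88% at 40 weeks, the latter close to the 5% that the rule requires.

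Markers of other cell types differed between the libraries as well. The 11 macrophage markers summed to 198 CPM in the 14-week melanotrophs and 918 CPM at 40 weeks, against 42871 and 30905 CPM in macrophage-like cells, and per cell they ranged from 0 to 1.38% and from 0 to 5.63% of UMIs. The 5 red blood cell markers summed to 1.41 CPM and 1865 CPM, the 8 gonadotroph markers to 194 and 1738 CPM. All 10 corticotroph markers, by contrast, summed to only 43.5 and 51.6 CPM, against 628 and 443 CPM in other Pomc-high cells. No marker of these 4 lists was at 0 in the melanotrophs of either library. The part of free RNA in single gene values was not tested gene by gene. Counts after subtracting a free RNA profile are given for some lists beside the comparison between ages.

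Against all other kept cells of the same library, melanotrophs held a receptor subunit, enzymes and adhesion molecules at levels at least 10-fold higher in both libraries. For each gene the summed UMIs of the sets were scaled by the median of ratios, which makes a ratio relative to the median gene. Here the scaled ratio is the ratio of CPM times 0.741 at 14 weeks and 0.866 at 40 weeks. Of 15220 genes with at least 20 UMIs in the 2 sets of each library, 812 were at least 2-fold higher in melanotrophs in both libraries, which is 5.34% of those tested, and 1922 were at least 2-fold lower in both, which is 12.6%; in plain CPM the counts were 1216 and 1546. The 812 genes were 70.5% of the 1152 that were higher at 14 weeks and 69.2% of the 1173 at 40 weeks. Since the rule chose the cells, these counts describe the cells and test nothing.

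Grik1, a kainate-type glutamate receptor subunit, had the highest ratio by the library in which it was lower. It stood at 47.8 CPM in melanotrophs and 0.898 CPM in all other cells at 14 weeks, a ratio of 39.4 (30.8 to 51.1), and at 36.4 and 1.14 CPM at 40 weeks, a ratio of 27.6 (20.05 to 38.6). Ptprr, a receptor-type tyrosine phosphatase, followed with ratios of 32.5 and 21.1, and Rasd2, a small GTPase also known from the striatum, with 24.0 and 21.0. In both libraries all other cells together held these genes at 1.14 CPM or less.

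Gulo, which encodes the last enzyme of vitamin C synthesis in the mouse, was abundant as well, at 139 CPM against 1.94 CPM at 14 weeks and 86.8 against 3.66 CPM at 40 weeks. Its ratios were 52.9 (44.9 to 62.7) and 20.5 (17.1 to 24.8). Arg1, the arginase of the urea cycle, reached 13.6 and 14.8 CPM with ratios of 20.04 and 15.4, and Slc14a2, a urea transporter, 9.60 and 20.2 CPM with 38.5 and 17.3. Thus an enzyme that releases urea and a carrier that moves it were both at least 15.4-fold higher in melanotrophs in each library. Among the other leading genes were Ppp1r17, an inhibitor of protein phosphatases first known from cerebellar Purkinje cells, with ratios of 46.2 and 14.5, and Crisp1, a secreted cysteine-rich protein known from the epididymis, with 32.8 and 15.6.

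Several of the remaining leading genes encode guidance and adhesion molecules. Sema3e, a secreted semaphorin, had ratios of 21.1 and 13.6, Slit1, a ligand of Robo receptors, 19.2 and 13.4, and Mdga2, a neuroligin-binding membrane protein, 19.3 and 14.5. Kirrel3, an adhesion molecule of the immunoglobulin family, had 14.0 and 11.9, and Pcdh15, a protocadherin known from hair cells, 21.2 and 12.7. The remaining ones of the 20 leading genes, Vwa5b2, Cpne7, Fam19a1, Fut9, Arpp21, Ccdc155 and Sntg2, lay between 12.3 and 31.6 in both libraries.

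**Figure D2:**
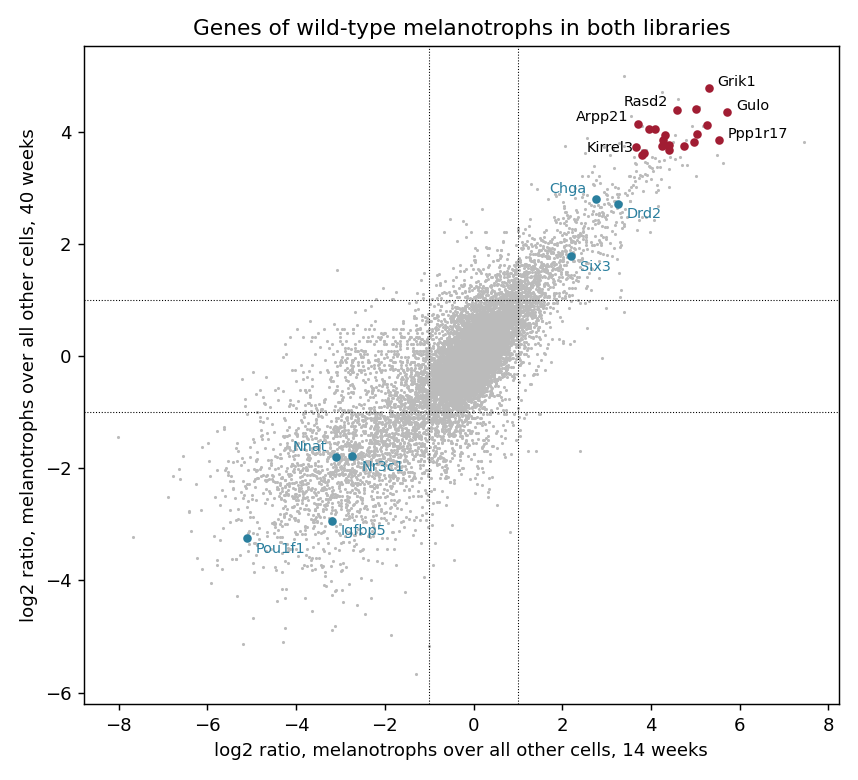
Log2 ratio of scaled levels in melanotrophs over all other kept cells at 14 weeks (horizontal axis) and 40 weeks (vertical axis) for the 15220 genes tested. Each grey point is a gene, red points are the 20 leading genes and blue points other genes named in the text, and dotted lines mark 2-fold; the leading genes lie in the upper right, and Pou1f1 lies far to the lower left.

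Of 28 genes of hormone processing and secretory granules tested, 2 were higher and 5 lower in both libraries, where 5.34% and 12.6% of all genes were, with median log2 ratios of 0.13 and 0.33 beside -0.09 and -0.08 over all genes. Chga, the granule protein chromogranin A, was 1 of the 2 higher ones, at 1713 and 2587 CPM against 187 and 321 CPM in all other cells, ratios of 6.77 (6.62 to 6.92) and 6.99 (6.82 to 7.16). Rab27b, a GTPase that docks granules, was the other, with 5.88 and 2.65. Its relative Chgb went the other way, with 932 against 3023 CPM at 14 weeks and 1113 against 1944 CPM at 40 weeks, ratios of 0.228 and 0.496. Pcsk1, the corticotroph convertase, stood at 56.9 and 50.2 CPM in melanotrophs, ratios of 0.742 and 1.27 to all other cells.

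Lineage transcription factors went both ways. Of 29 tested, 5 were higher and 12 lower in both libraries, beside 5.34% and 12.6% of all genes. Six3, a homeobox factor of the forebrain and pituitary, stood at 524 and 259 CPM against 84.2 and 65.2 CPM, ratios of 4.61 and 3.44. Tbx19, the factor that activates Pomc in both Pomc lineages, had ratios of 2.73 and 2.57, and Rbfox3, known as the neuronal splicing factor NeuN, 21.5 and 11.8. Nr4a2, an orphan nuclear receptor, had 3.46 and 2.60. Pou1f1, the factor of the growth hormone, prolactin and thyrotropin lineages, was among the lower ones at 9.31 and 21.8 CPM against 238 and 180 CPM, ratios of 0.029 (0.0236 to 0.0353) and 0.105 (0.0848 to 0.129).

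Secreted factors and immune transcripts were mostly lower. Of 30 neuropeptides and secreted factors tested, 2 were higher and 17 lower in both libraries, beside 5.34% and 12.6% of all genes. The 2 higher ones were Wnt4, with ratios of 8.50 and 4.06, and Pdyn, the prodynorphin gene, with 3.60 and 2.45. Igfbp5, which binds insulin-like growth factors, stood at 44.3 and 31.4 CPM against 302 and 208 CPM. All 11 macrophage markers and 11 of 27 interferon and MHC class I genes were lower in both libraries, and none in either list was higher.

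The nearest relatives of melanotrophs are other cells that make Pomc. Cells with at least 5% Pomc and low Gh and Prl but with no UMI of Pcsk2 or of any of the 4 second markers served for this comparison, 215 at 14 weeks and 199 at 40 weeks. They carried the corticotroph markers, but were shallower than melanotrophs, with medians of 5761 and 4804 UMIs, and since they had to lack 5 genes, shallow cells were more likely to enter. Whether shallow melanotrophs are among them was not tested. Oacyl and Pax7 were absent from them by the rule. The scaled ratio is here the ratio of CPM times 1.12 at 14 weeks and 1.28 at 40 weeks.

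Of 10750 genes tested, 786 were at least 2-fold higher in melanotrophs than in these cells in both libraries, 7.31%, and 284 at least 2-fold lower, 2.64%; in plain CPM the counts were 568 and 437. The 786 were 62.5% of the 1257 that were higher at 14 weeks and 52.4% of the 1499 at 40 weeks, and the 284 were 51.0% of 557 and 60.8% of 467. Receptors, ion channels and adhesion molecules were among the higher genes, and genes of the glucocorticoid response among the lower ones.

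Drd2, the dopamine D2 receptor through which dopamine holds melanotrophs in check, led the ranking. It stood at 207 CPM in melanotrophs and 3.86 CPM in other Pomc-high cells at 14 weeks, from 2197 and 6 UMIs, and at 137 and 2.13 CPM at 40 weeks, from 584 and 2 UMIs. The ratios were 59.9 (27.5 to 163) and 81.9 (22.6 to 678). After thinning every cell to 1000 UMIs, 17.6% of melanotrophs at 14 weeks and 10.997% at 40 weeks held a UMI of Drd2, against 0.486% and 1.76% of macrophage-like cells, which should lack it. Before thinning the shares were 84.3% and 52.4% of melanotrophs and 2.73% and 7.42% of macrophage-like cells, at median depths of 17154 and 7122.5 UMIs for melanotrophs and of 3857 and 2845 UMIs for macrophage-like cells. None of the 212 and 198 thinned other Pomc-high cells held a UMI of Drd2, while before thinning 2.79% and 1.01% of them did, so non-detection at this depth sets no limit on cells that express it.

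Of 11 dopamine and GABA genes tested, 5 were higher and none lower in both libraries, beside 7.31% and 2.64% of all genes. Gabra2, a GABA-A receptor subunit, stood at 66.0 and 41.0 CPM in melanotrophs and had 1 UMI among the other Pomc-high cells of each library, so its ratios of 115 (20.5 to 4537) and 49.1 (8.69 to 1949) are known only loosely. Gabrg1, a further subunit, also rested on 1 UMI each, with ratios of 21.6 (3.81 to 860) and 9.53 (1.599 to 387). Gabra4 had 2.77 and 2.64. Gad2, which makes GABA itself from glutamate, stood at 70.3 and 29.6 CPM against 3.21 and 2.13 CPM, ratios of 24.4 (10.4 to 75.5) and 17.7 (4.79 to 147). Hence the receptor subunits named here and an enzyme of synthesis were higher in melanotrophs, while 6 of the 11 genes tested were called neither way.

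Among 20 other receptors tested, 8 were higher and 3 lower in both libraries, beside 7.31% and 2.64% of all genes. The balance turned when at least 1 UMI in each set was required, with 4 higher and 7 lower of 22 and medians of -0.60 and -0.36 in place of 0.36 and 0.38 (log2). Sstr1, a somatostatin receptor, stood at 31.3 and 31.2 CPM in melanotrophs and had no UMI in other Pomc-high cells, which makes it at least 18.2-fold and 12.4-fold higher against a floor of 3 counts per library. Esr1, the estrogen receptor alpha, had 9.79 and 6.22, and Mc3r, a melanocortin receptor that binds Pomc products, had no UMI in the other Pomc-high cells and was at least 6.33-fold and 2.62-fold higher.

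The 3 lower receptors were Crhr1, Nr3c1 and Ntrk2. Crhr1, the receptor for corticotropin-releasing hormone, stood at 6.77 and 14.8 CPM in melanotrophs against 111 and 81.1 CPM, ratios of 0.0685 (0.0513 to 0.0907) and 0.232 (0.164 to 0.329). Nr3c1, the glucocorticoid receptor by which corticosteroids feed back on corticotrophs, stood at 14.4 and 15.9 CPM against 191 and 182 CPM. It was 11.9-fold (9.76 to 14.6) and 8.97-fold (6.73 to 12.1) lower in melanotrophs, and after thinning 1.11% and 1.37% of melanotrophs held it, against 16.0% and 13.6% of other Pomc-high cells. Ntrk2, a neurotrophin receptor, had ratios of 0.247 and 0.350, while its relative Ntrk3 was higher, with 17.7 at 14 weeks and at least 7.57 at 40 weeks.

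Genes known to respond to glucocorticoids were lower along with the receptor. Of 13 tested, none was higher and 6 were lower in both libraries, where 7.31% and 2.64% of all genes were. The median log2 ratio was -1.22 at 14 weeks and -1.21 at 40 weeks, beside 0.09 and 0.13 over all genes. Fkbp5, a co-chaperone of the receptor, stood at 22.6 and 10.6 CPM against 159 and 59.8 CPM, ratios of 0.159 and 0.225. Cdkn1a, a cell cycle inhibitor, had 0.117 and 0.154, Mt2, a metallothionein, 0.159 and 0.334, and Sgk1, a kinase, 0.255 and 0.313. Klf9 and Errfi1 were the other 2, at 0.385 and 0.397 and at 0.465 and 0.418. Tsc22d3 was not called, with 1.11 and 0.605, nor was Per1 with 0.861 and 1.31.

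**Figure D3:**
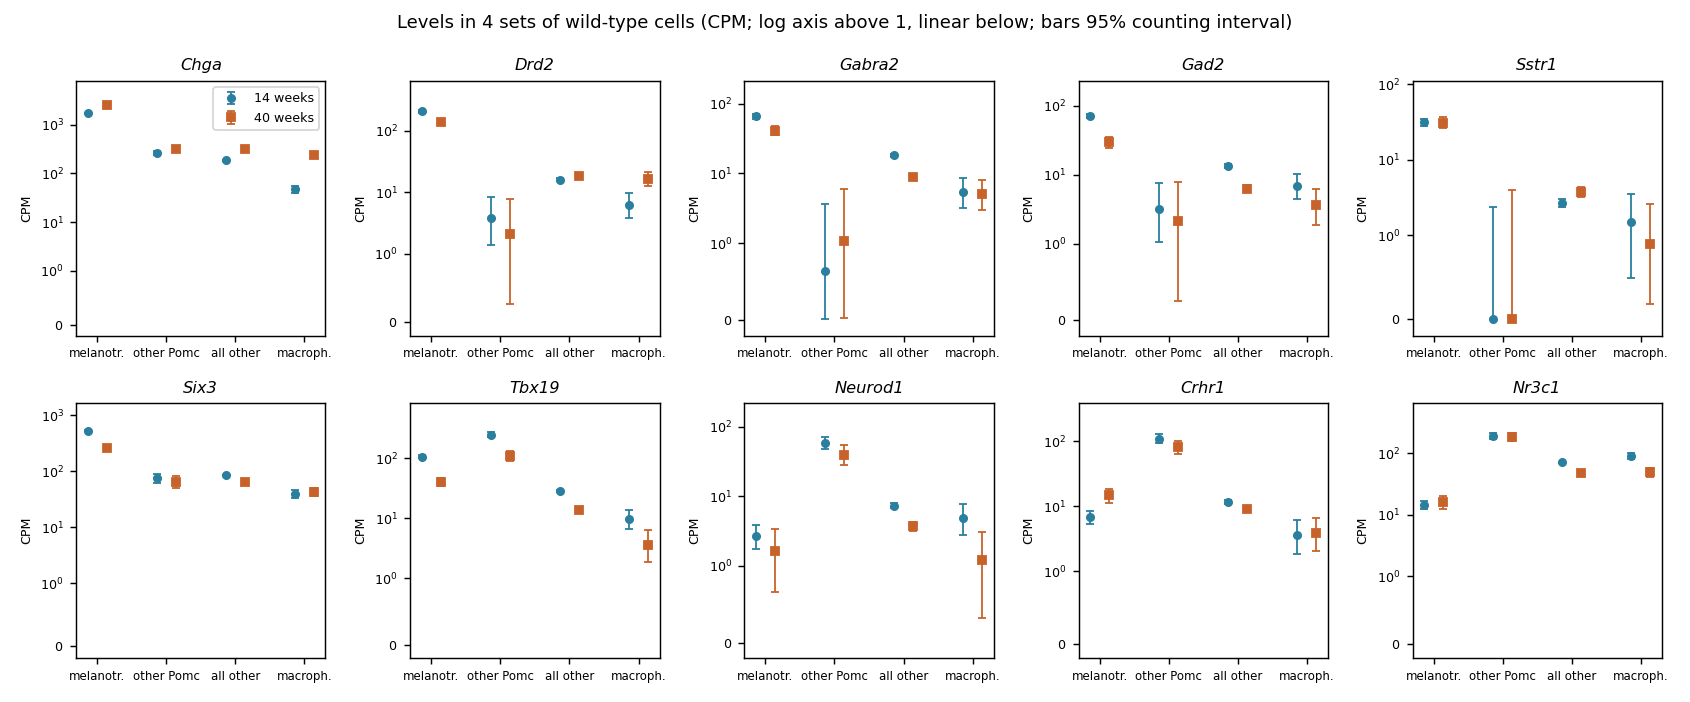
Levels of 10 genes in CPM in melanotrophs, other Pomc-high cells, all other kept cells and macrophage-like cells of the wild-type libraries at 14 weeks (circles) and 40 weeks (squares), with 95% counting intervals. The vertical axis is logarithmic above 1 CPM; Drd2, Gabra2, Gad2 and Sstr1 are highest in melanotrophs, while Neurod1, Crhr1 and Nr3c1 are highest in other Pomc-high cells in both libraries.

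Transcription factors separated the 2 kinds of Pomc cell. Neurod1, the factor of early corticotrophs, stood at 2.63 and 1.64 CPM in melanotrophs against 59.1 and 39.5 CPM, ratios of 0.0498 (0.0314 to 0.0767) and 0.0530 (0.0200 to 0.121). Tbx19 was also lower, at 107 and 40.1 CPM against 247 and 109 CPM, ratios of 0.482 and 0.470, and Eya1 had 0.302 and 0.295. Six3 had 7.79 and 5.07, Sox11, a factor of immature neurons, 7.20 and 8.83, and Rbfox3, a splicing factor and not a transcription factor, 29.0 and 17.6. Hes6 had 3.29 and 2.24, and in all 5 of 24 factors were higher and 3 lower, beside 7.31% and 2.64% of all genes.

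Ion channels leaned upward, with 15 of 41 higher and 3 lower in both libraries, beside 7.31% and 2.64% of all genes. In plain CPM 11 were higher and 5 lower. Cacna1a, the pore of the P/Q-type calcium channel, had ratios of 5.18 and 7.46, and Cacna2d2, an auxiliary calcium channel subunit, 14.8 and 8.69. Scn2a, a sodium channel, stood at 101 and 31.9 CPM with 5.47 and 2.54, and Kcnc1, a fast potassium channel, had 5.55 and 5.01. Kcnk3, a leak potassium channel, had no UMI in other Pomc-high cells at 14 weeks and 2 UMIs at 40 weeks, which makes it at least 17.4-fold higher at 14 weeks and 10.4-fold (2.77 to 87.3) higher at 40 weeks. Its relative Kcnk2 was lower, at 28.8 and 25.6 CPM against 191 and 248 CPM, ratios of 0.169 and 0.132.

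Of 46 genes of synapse, exocytosis and adhesion, 14 were higher and 5 lower, beside 7.31% and 2.64% of all genes. Syt1, the calcium sensor of fast release, had 3.21 and 4.10, Sv2b, a vesicle protein, 7.63 and 4.09, and Gnal, a G protein subunit that couples to adenylyl cyclase, 16.8 and 27.2, the latter over 1 UMI. Nnat, a small membrane protein of the endoplasmic reticulum, was the most abundant of the lower ones, at 395 and 882 CPM against 10280 and 9177 CPM, ratios of 0.04295 and 0.123. Granule genes differed less: Chga stood at 7.34 and 10.3 times its level in other Pomc-high cells, 4 of 25 genes were higher and only Rab3b, with 0.415 and 0.492, was lower.

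**Figure D4:**
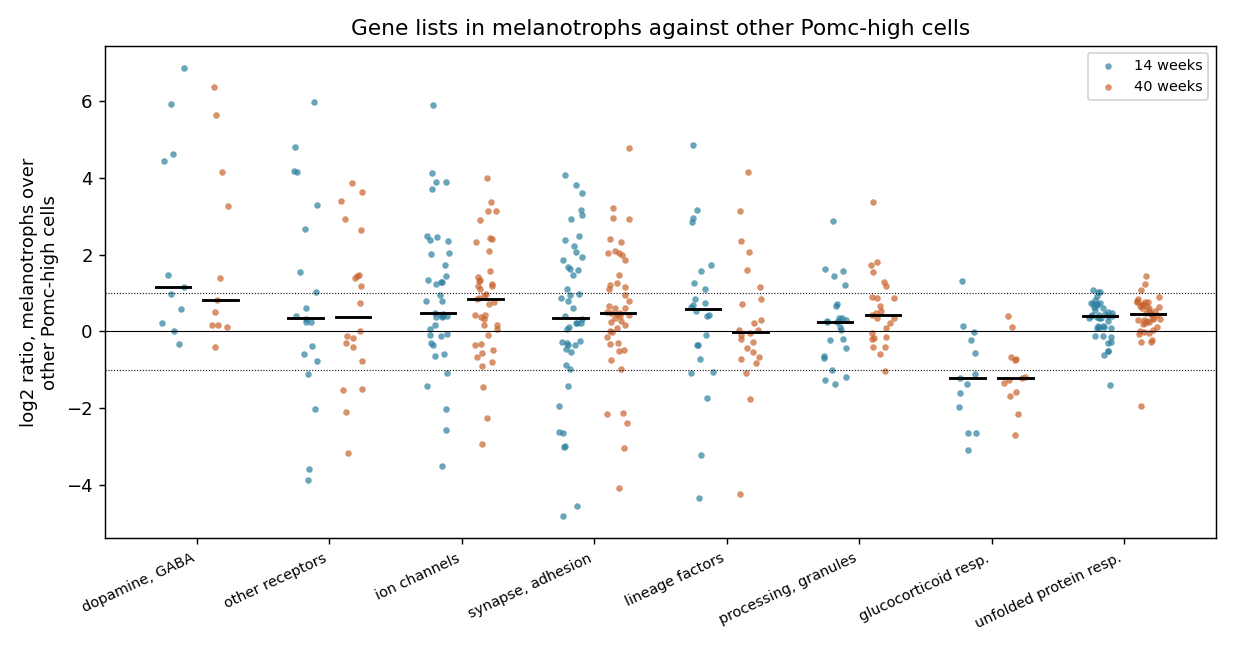
Log2 ratio of scaled levels in melanotrophs over other Pomc-high cells for the tested genes of 8 lists at 14 and 40 weeks; each point is a gene, the bar the list's median, and dotted lines mark 2-fold. Genes without a UMI in the other cells are drawn against the floor of 3 counts; the glucocorticoid-responsive genes have medians of -1.22 and -1.21, below those of the other lists.

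Outside the lists, the highest ratios belonged to Kif21b, a kinesin, with 77.1 and 22.4 over 1 UMI each, to Upk3a, a uroplakin, with 27.3 and 21.7 over 2 UMIs each, and to Hist3h2ba, a histone gene. Hist3h2ba stood at 168 and 153 CPM against 4.50 and 9.60 CPM, ratios of 41.7 (20.2 to 104) and 20.4 (10.7 to 44.8), though reads can be shared among histone genes of like sequence. With Pomc at 10% or more required, Kif21b came to 10.6 and 2.87, Upk3a to 7.39 and 6.07, Gabra2 to 16.2 and 20.1, and Sema3e at 40 weeks from 37.6 to 4.96. Slitrk5, Cdh13 and Grin3a, molecules of synapses and adhesion, lay between 17.1 and 86.7, each over 1 to 3 UMIs in the other cells. Among the genes with the lowest ratios, Irs4, an adaptor of insulin signalling, had 0.0417 and 0.108, Efemp1, a matrix protein, 0.0514 and 0.143, Cebpd, a transcription factor, 0.0875 and 0.152, and Tnnt1, a troponin that marks corticotrophs, 0.0705 and 0.0935.

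Variation among cells was measured on a fixed depth. Thinned to 2000 UMIs, 514 cells at 14 weeks and 541 at 40 weeks gave a median variance over mean of 1.01 and 1.02 over 4690 genes, where counting alone gives about 1 and rare genes stay near it whatever the cells hold. Beyond Pomc, Gh and Prl, the highest values belonged to Cga, the shared subunit of the glycoprotein hormones, with 19.2 and 12.3, and Malat1, a nuclear long RNA, with 9.95 and 18.5. Cga was found in 7.004% of the thinned cells at 14 weeks and 88.5% at 40 weeks, and Apoe, Cd74 and H2-Eb1, genes of macrophages and antigen presentation, also ranked high. Of genes that melanotrophs hold at high levels, Meg3 had 3.73 and 4.76 and Chga 2.02 and 3.798, while Chga was seen in 93.2% and 94.5% of the thinned cells.

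Melanotrophs of the 40-week library differed from those of the 14-week library in many genes, and in most of them all other cells of the same libraries differed too. Of 13064 genes with at least 20 UMIs in the 2 sets, 2257 were at least 1.5-fold higher at 40 weeks, 17.3%, and 2578 at least 1.5-fold lower, 19.7%; in plain CPM the counts were 915 and 5628. The lower bound of the interval was past 1.5-fold in 963 of the higher genes, and in 595 of the lower ones the interval lay beyond it. Of the higher genes that could be compared, 1344 of 2249 (59.8%) were also called higher in all other cells, where 17.6% of genes were called higher, and 1486 of 2565 (57.9%) of the lower ones were also called lower there, where 20.9% were. The scaled ratio is the ratio of CPM times 1.35, and without the scaling the median gene would lie at -0.47 (log2).

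The energy genes were of the shared kind. Of 71 nuclear genes of oxidative phosphorylation, 50 were higher and none lower at 40 weeks, beside 17.3% and 19.7% of all genes. Their median log2 ratio was 0.73 in melanotrophs and 0.68 in all other cells. In plain CPM 12 were higher and 4 lower, where 915 and 5628 of all 13064 genes were. The 13 mitochondrially encoded genes had a median of -0.57, with 1 higher and 6 lower, and of -0.61 in all other cells. After subtraction of the free RNA profile 50 of the 71 nuclear genes were higher and none lower. Of the 13 mitochondrially encoded ones 1 was then higher and 10 lower. Hormone and macrophage markers were higher as well: Tshb, the thyrotropin gene, went from 4.05 to 222 CPM in melanotrophs, a ratio of 74.4. Called higher were 10 of 11 macrophage markers, beside 17.3% of all genes. With the free RNA profile subtracted, only 1 macrophage marker could still be tested, and it was called lower. Still called higher were 4 of 5 gonadotroph and 2 of 4 thyrotroph markers, and 1 thyrotroph marker was called lower. At 40 weeks the thyrotroph markers took a median 0.124% of a melanotroph's UMIs, with a minimum of 0.0149%, and 0.164% in all other cells. Gonadotroph markers took 0.137%, with a minimum of 0.0240%, and 0.176% in all other cells. Whether free RNA remains in the subtracted counts was not tested.

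Genes of the unfolded protein response and of export from the endoplasmic reticulum went apart from the other cells. Of 41 tested, 15 were higher and 3 lower in 40-week melanotrophs, beside 17.3% and 19.7% of all genes. Their median log2 ratio was 0.39, while the median in all other cells was -0.24. After subtraction of the free RNA profile 13 were higher and 2 lower. In 40 of the 41 the ratio in melanotrophs was above that in all other cells, which holds for 48.3% of all 13064 genes. The list summed to 8354 CPM at 14 weeks and 8855 CPM at 40 weeks in melanotrophs. In other Pomc-high cells it summed to 7131 and 7777 CPM, and in all other cells to 9179 and 7402 CPM. The median log2 ratio of melanotrophs over other Pomc-high cells was 0.39 at 14 weeks and 0.44 at 40 weeks. In plain CPM the median in melanotrophs was -0.04 with 5 higher and 6 lower, so the direction within melanotrophs depends on the scaling.

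Sdf2l1, a chaperone partner, stood at 134 CPM at 14 weeks and 256 CPM at 40 weeks, a ratio of 2.58 (2.38 to 2.79), with 160 and 170 CPM and a ratio of 1.25 (1.22 to 1.29) in all other cells. Manf, a secreted stress protein, went from 340 to 508 CPM, 2.02 (1.92 to 2.13) against 1.02 in all other cells, and Calr, the chaperone calreticulin, from 510 to 693 CPM, 1.84 against 0.930. Herpud1, which serves the degradation of misfolded proteins, had 1.72 in melanotrophs and 0.584 in all other cells. Hspa5, the central chaperone BiP, was level in melanotrophs with 1.02 (0.976 to 1.06) and at 0.519 in all other cells. Derl3, another degradation gene, was among the 12 leading genes, at 3.01 and 13.6 CPM, 6.12 (3.91 to 9.74), against 1.15.

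Of 26 genes of processing and granules, 10 were called higher and 5 lower at 40 weeks, beside 17.3% and 19.7% of all genes. The share of lower ones thus lay near that of all genes. The median log2 ratio was 0.21 in melanotrophs and -0.14 in all other cells. After subtraction of the free RNA profile 9 were higher and 6 lower. In plain CPM the median in melanotrophs was -0.22, with 5 higher and 6 lower. Vgf, a granule peptide precursor, stood at 23.1 and 54.2 CPM, a ratio of 3.18 (2.65 to 3.82), against 0.970 in all other cells. Cpe, which trims cut peptides, had 2.11 against 1.69, and Chga 2.05 against 2.01. Among peptides Nmb, the neuromedin B gene, had 4.29 against 1.52. Pomc itself, on which the rule rests, had 1.51 on this scale, from 210411 and 234056 CPM.

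Among factors of growth and fate, Ccnd1, the gene of cyclin D1, went from 65.8 to 11.7 CPM, a ratio of 0.241 (0.177 to 0.322), and from 98.1 to 34.0 CPM with 0.407 in all other cells. Sox4 went from 184 to 51.8 CPM, 0.380 (0.329 to 0.437), against 1.24 in all other cells, and Wnt4 had 0.349 against 0.741. Of 28 lineage factors 5 were higher and 9 lower, beside 17.3% and 19.7% of all genes. On these scaled counts the share of higher ones lay near that of all genes. In plain CPM 2 were higher and 17 lower, where 915 and 5628 of all 13064 genes were. After subtraction of the free RNA profile 1 was higher and 9 were lower.

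Single genes were ranked between ages only where melanotrophs held at least the level of all other cells in the library with the higher value. That condition left out genes such as Cga, with a ratio of 14.8. Among the genes so ranked, 5 of the 12 highest ratios at 40 weeks belonged to the clock genes Dbp, Ciart, Per2, Tef and Nr1d2. Of the 12 lowest so ranked, 2 belonged to Npas2 and Arntl. The daily clock turns on the factors Arntl and Clock, or Npas2 in its place, which bind E-boxes and switch on Per, Cry, Dbp, Tef, Nr1d and Ciart genes, and the products of these act back on the clock. In rodents the arm of Dbp and the Per genes peaks at another time of day than Arntl. A list of 20 clock genes was drawn up after these values had been seen, so its counts are a description.

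Dbp, a PAR-domain transcription factor, went from 13.7 CPM at 14 weeks to 165 CPM at 40 weeks in melanotrophs, a ratio of 16.3 (13.6 to 19.6), and from 17.0 to 76.9 CPM in all other cells, 5.32 (5.00 to 5.67). Ciart, a repressor of the clock, had 13 and 52 UMIs in melanotrophs and a ratio of 13.5 (7.25 to 27.0), against 3.08 (2.55 to 3.74) in all other cells. Per2, a core repressor, had 21 and 53 UMIs and 8.52 (5.05 to 14.9), against 2.60 (2.16 to 3.14). For these 3 genes the intervals in melanotrophs and in all other cells did not overlap. Tef had 5.12 against 2.07, Nr1d2 4.96 against 1.44, Per3 3.44 against 1.38 and Bhlhe41 3.16 against 1.66.

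Arntl, the positive factor, went the other way, from 50.2 to 3.52 CPM in melanotrophs, from 534 to 15 UMIs, 10.55-fold lower (6.34 to 19.0), and from 19.9 to 7.11 CPM in all other cells, 2.39-fold lower. Npas2 had 99 and 2 UMIs, a ratio of 0.0682 (0.00814 to 0.253) against 0.118. Clock had 0.428 against 0.578, Nfil3 0.444 against 0.661 and Rorb 0.482 against 0.560. Cry1 with 1.01, Rora with 0.966, Hlf with 0.825, Nr1d1 with 1.24, Bhlhe40 with 1.32, Per1 with 1.40 and Cry2 with 1.40 were not called. In all, 8 of the 20 were called higher and 5 lower.

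Of the 13 called clock genes, 12 had UMIs in macrophage-like cells of both libraries and 11 of these lay on the same side of 1 there, with no test made. The exception was Nfil3 with 1.56 (0.873 to 2.82), and among genes not called Per1 had 0.655 (0.482 to 0.884). In macrophage-like cells Dbp had 4.84 (3.61 to 6.57), from 59 and 213 UMIs, and Arntl 0.246 (0.116 to 0.471), from 60 and 11 UMIs. In p25OE cells that met the same rule, Dbp stood at 22.0 CPM at 14 weeks and 122 CPM at 40 weeks, Arntl at 52.6 and 18.3 CPM, and Per2 at 8.70 and 9.09 CPM. There 11 of the 13 called genes moved the same way in plain CPM, while Per3 went from 107.6 to 78.2 CPM and Bhlhe41 from 59.3 to 34.7 CPM. The ratio of Dbp in wild-type melanotrophs lay between 12.02 and 17.7 over all alternative settings and that of Arntl between 0.0700 and 0.107. The hour at which glands were taken was not tested, and with 1 library per age it cannot be told apart from age.

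**Figure D5:**
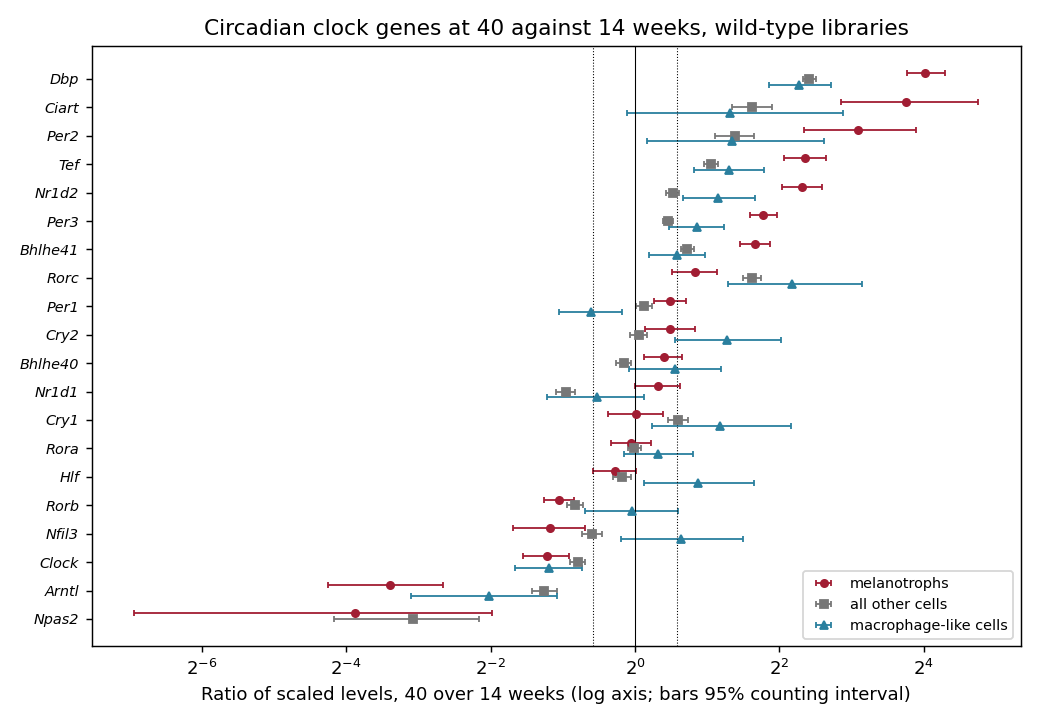
Ratio of scaled levels at 40 over 14 weeks for 20 clock genes in wild-type melanotrophs (circles), all other kept cells (squares) and macrophage-like cells (triangles), on a log axis with 95% counting intervals; dotted lines mark 1.5-fold. Dbp, Ciart and Per2 lie far to the right in melanotrophs and Arntl and Npas2 far to the left; Npas2 is not drawn for macrophage-like cells, which had 4 and 0 UMIs.

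The promoters of the 5 called clock genes that hold a clock motif are shown, 4 called higher and 1, Nfil3, called lower. The 250 bases before the start of transcription came from RefSeq (GRCm38.p6, the same assembly as mm10), and 17 of the 20 genes had an entry, with 23 starts. Motifs were searched on both strands, with overlapping matches each counted: the E-box CACGTG, which is its own reverse complement, the D-box TTATGTAA, TTACATAA or TTACGTAA, and the RORE half-site TAGGTCA or TGGGTCA with their complements. Over all 32851 promoters, 6.02% held this E-box, 0.932% a D-box and 5.38% the half-site. Of the 17 genes 5 held an E-box at 1 or more starts, 1 a D-box and 1 a half-site. These counts are per gene and the shares above per promoter, so they are not compared. Motifs are in capitals; each sequence is written 5′ to 3′ on the strand of its gene, Ciart from chr3:95882229-95882478 (minus strand, build GRCm38.p6), Bhlhe41 from chr6:145865421-145865670 (minus), Tef from chr15:81811164-81811413 (plus, the second of 2 starts, which both hold an E-box), Nfil3 from chr13:52981040-52981289 (minus) and Per3 from chr4:151044666-151044915 (minus).
Ciart: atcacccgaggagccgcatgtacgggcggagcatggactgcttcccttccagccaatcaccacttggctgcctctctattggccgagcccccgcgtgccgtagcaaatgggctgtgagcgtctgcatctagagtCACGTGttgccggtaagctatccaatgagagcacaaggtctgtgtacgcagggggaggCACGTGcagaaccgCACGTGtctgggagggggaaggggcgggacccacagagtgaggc
Bhlhe41: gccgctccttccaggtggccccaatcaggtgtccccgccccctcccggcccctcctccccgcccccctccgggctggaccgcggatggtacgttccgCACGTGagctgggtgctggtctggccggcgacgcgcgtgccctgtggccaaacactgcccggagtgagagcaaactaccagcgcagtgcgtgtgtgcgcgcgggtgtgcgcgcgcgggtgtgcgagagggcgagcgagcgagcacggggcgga
Tef: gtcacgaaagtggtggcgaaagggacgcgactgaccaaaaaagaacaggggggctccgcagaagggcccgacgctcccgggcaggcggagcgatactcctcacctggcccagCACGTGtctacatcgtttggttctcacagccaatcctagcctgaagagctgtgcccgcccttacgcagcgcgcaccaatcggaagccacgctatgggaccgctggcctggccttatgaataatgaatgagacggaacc
Per3: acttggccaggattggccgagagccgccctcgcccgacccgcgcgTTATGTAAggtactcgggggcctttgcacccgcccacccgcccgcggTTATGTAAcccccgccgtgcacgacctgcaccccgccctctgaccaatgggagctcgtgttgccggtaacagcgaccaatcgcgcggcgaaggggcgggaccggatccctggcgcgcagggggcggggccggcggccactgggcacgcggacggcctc
Nfil3: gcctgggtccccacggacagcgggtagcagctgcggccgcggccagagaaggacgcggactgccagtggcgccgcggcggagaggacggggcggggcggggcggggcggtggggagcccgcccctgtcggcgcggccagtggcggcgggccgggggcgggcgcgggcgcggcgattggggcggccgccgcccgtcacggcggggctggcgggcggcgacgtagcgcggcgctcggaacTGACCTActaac
Ciart, with 3 E-boxes, was 13.5-fold higher at 40 weeks, Bhlhe41 and Tef, with 1 each, 3.16-fold and 5.12-fold, and Per3, with 2 D-boxes, 3.44-fold, while Nfil3, with a half-site, had a ratio of 0.444. Cry1 and Per1 also hold an E-box but were not called, with ratios of 1.01 and 1.40, and their sequences are not shown. A match of letters is a description only: the window of Dbp holds none of these letters, and Per2 was not matched.

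The remaining leading genes of the comparison between ages were of mixed kind. Lrrc17, a secreted leucine-rich protein, had 9 and 68 UMIs in melanotrophs, 25.5 (12.7 to 58.1) against 3.55 in all other cells, and Serpinb11, a serpin, 8.93 against 3.09. Bc1, a small neuronal RNA, Nme2, Sag and Phpt1 had 14.7, 7.50, 5.29 and 4.54, with 10.4, 6.02, 6.01 and 4.91 in all other cells, so they moved about as much there. At the low end, Adnp fell to 1 UMI from 102, a ratio of 0.0331 (0.00083 to 0.189), with 0.0199 in all other cells. Fam84a, with 55 UMIs and 1, had 0.0614 (0.00153 to 0.356) in melanotrophs and 1.07 in all other cells. Pdpr, Pcdhga5, Iltifb, Asxl3, Shank3, Pcdhga7, Fam151b and Rragb were all lower in melanotrophs at 0.0544 to 0.118, and also lower in all other cells. Pcdhga5 and Pcdhga7 share their last exons with other genes of their cluster and Iltifb has a near-identical copy, so their counts are uncertain.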

How the data were processed

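The deposited files hold gene by barcode matrices of UMI counts from 4 droplet libraries, made by the authors with Cell Ranger 3.0.2 on mm10 per the submitters' processing notes, while the file headers name software version 3.0.1. The counts cover 31053 features and were used as deposited. Cells were kept at 500 detected genes or more and 20% mitochondrial UMIs or less, doublets were not called, and melanotrophs were chosen by the rule in the opening. Counts were summed per library and set of cells. CPM is a count per 1000000 UMIs of the set, and ratios were scaled by the median of ratios over genes with at least 20 UMIs in each set. Intervals are exact conditional binomial intervals at 95%. A gene without a UMI in a set was given a floor of 3 counts per library. With 1 library per group no test was made, and a gene counts as called past 2-fold in both libraries between cell sets, or past 1.5-fold between ages. Shares of cells used cells thinned to 1000 UMIs, and variation used 2000. Macrophage-like cells held at least 6 of 8 macrophage genes and under 5% Pomc.

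Genes named are those of the rule, up to 5 at each end of each list and those with the roles described, the 20 highest over all other cells, the 12 highest and lowest against other Pomc-high cells and between ages (there with at least 50 UMIs in 1 library and an interval beyond 1.5-fold), and the 12 most variable. The ranking between ages also required a level in melanotrophs at least that of all other cells in the library where the gene was higher. Rankings left out the genes of the rule, gene models, and mitochondrial, ribosomal, haemoglobin and sex-linked genes. Members, lists and the rule were chosen with earlier results of these data known. Python 3.11.15, NumPy 2.4.6, SciPy 1.17.1, pandas 2.3.3 and Matplotlib 3.10.9 were used, and the calculation was tested on simulated data. Results of some genes that the rule names are not reported here.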

Additional observations from a re-analysis of the deposited data

Results flagged for a closer look

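The 13 mitochondrially encoded genes lay on opposite sides of other Pomc-high cells in the 2 wild-type libraries, with a median log2 ratio in melanotrophs of -0.249 at 14 weeks and 0.263 at 40 weeks. In plain CPM both medians were negative, -0.41 and -0.09, so the opposition depends on the scaling. This difference was not tested, and no gene of the list was called in both libraries.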

How the results depend on the processing

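The genes lower than in other Pomc-high cells numbered 284, and 437 in plain CPM, 155 with at least 50 UMIs, 677 with at least 1 UMI in each set and 184 with Pomc at 10% or more, the last chosen after seeing the data. The higher ones numbered 483 with at least 50 UMIs. Between ages, plain CPM gave 915 higher and 5628 lower genes, and at least 1 UMI in each set gave 4292 higher. The share of melanotrophs was 7.46% at 14 weeks without the 6% of cells with the most UMIs. At 40 weeks it was 5.95% with 2 of the 4 markers required, 6.74% with Pomc at 10% or more and 9.01% with 1000 detected genes required. The cause of these shifts was not tested. Of the leading genes of the rankings, 112 ratios were recomputed and none reversed. These genes were ranked by extreme ratios in the same data, so a reversal was unlikely from the start. Requiring at least 50 UMIs, or at least 1 UMI in each set, leaves a ratio unchanged and could reverse none. Against other Pomc-high cells, 19 of 48 such ratios moved by over 1.5 times with Pomc at 10% or more, 17 of them nearer to no difference, and 19 with free RNA subtracted. Other named list genes were not recomputed one by one, and of the 20 clock genes 4 that were not called, Cry1, Nr1d1, Rora and Bhlhe40, crossed a ratio of 1 between settings. No paired analysis was possible because each group has 1 library, and for the same reason no replicate could be left out. Depth limits genes with few UMIs in the other Pomc-high cells, whose ratios have wide intervals.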
